A study of Mus musculus with 2 samples.

Results

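The 10 genes described here form the core of the Hippo pathway and its transcriptional arm, namely the kinases Stk3, Stk4, Lats1 and Lats2, the coactivators Yap1 and Wwtr1 (TAZ), and the DNA-binding partners Tead1, Tead2, Tead3 and Tead4. They were chosen by name among the 37074 gene names on the array, and every probe that carries one of these names was read. This gave 21 of the 56605 distinct probes on the array. A probe is called detected here where Feature Extraction marked its spot as well above background, and 19 of the 21 were among the 28066 probes detected on 1 or both arrays. These were held against the criteria given below and are called tested. The array's name Taz stands for tafazzin, an unrelated mitochondrial protein, so that TAZ was matched by the name Wwtr1 alone. The arrays held total RNA of mDE6 cells, described by the labels as mouse odontogenic epithelial cells. One array was of cells given DMSO vehicle for 6 h (labelled 0/1%DMSO, here called control), and 1 array was of cells given CHIR99021 for 6 h. CHIR99021 inhibits GSK-3 and so activates the β-catenin pathway. The labels give its dose as 5 mM, whereas the Methods give 5 μM and call the control untreated. The Methods also name a human array, whereas the header of the files names a mouse design and mouse build mm9. With 1 array per condition, no difference had a replicate check, no statistical test was possible and the number of arrays limits the precision. Both arrays lay on the same slide. Since each condition was on an array of its own, array and condition cannot be told apart.

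In the Hippo pathway, the MST kinases encoded by Stk3 (MST2) and Stk4 (MST1) activate the LATS kinases, which phosphorylate YAP and TAZ and so hold them in the cytoplasm. YAP and TAZ that escape phosphorylation enter the nucleus, bind TEAD factors and switch on genes such as Ctgf, Cyr61 and Lats2 itself, the last of which closes a feedback loop. In epithelial tissues the pathway is known for limiting organ size and cell number. The pathway acts largely through phosphorylation, which RNA arrays do not measure.

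Among the 10 genes, the signals of Lats2 and Tead3 were lower on the CHIR99021 array, at ratios of 0.508 and 0.515 of the control, and both met the criteria for lower genes. The other 8 genes did not meet them, with ratios from 0.824 to 1.11 at the probe with the highest mean signal. None of the 10 met the criteria for higher genes. The study's criteria for a lower probe are a ratio of at most 0.66 with a Z-score of at most -2.0. The mirrored criteria for a higher probe, a ratio of at least 1.5 with a Z-score of at least 2.0, were added here. A ratio is the CHIR99021 signal over the control signal after each was divided by the 75th percentile of its array. The Z-score compares its log2 value with those of the 500 probes closest in mean signal. This scaling and this set of 500 probes were chosen here. The study reports Z-scores from normalized signals but does not say how they were formed, so its own Z-scores may differ. Over the probes, 2 of the 19 tested met the lower criteria (10.5%), against 2.72% of all tested probes, and 0 met the higher criteria, against 2.35%. With 1 probe per gene name, the lower criteria were met by 3.22% of 18837 gene names and the higher criteria by 2.63%. The difference of the 10 genes from this background was not tested.

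The probes that carried these differences are shown because they tell which stretch of the transcript was read. The files give the full 60 bases of each probe in mm9, and the first 30 bases are written 5′ to 3′. The Lats1 probe with the highest signal is set beside them as the paralog that did not meet the criteria.
Lats2 A_52_P315345: tcaaggatggaacacatcccattttcatta
Lats2 A_55_P2002351: ttgcagtgtgtgcgaattcaagctcggacc
Lats2 A_51_P133349: taaatgggcaacaggaagagtcaacatgat
Tead3 A_55_P2735485: tttttaaaatccagctgtgatgggctacat
Lats1 A_55_P2504890: caatggcaacactaccattttataaaacag
The whole Lats2 probes lie at chr14:58308807-58308866, chr14:58341225-58341284 and chr14:58309973-58310032, all on the minus strand. The first and the last were designed on RefSeq transcript variant A, from bases 4823 and 3657 of it, and the second on variant B, from base 645. The Tead3 probe lies at chr17:28468710-28468769 on the minus strand and was designed on transcript variant 3, from base 2621. The Lats1 probe lies at chr10:7436052-7436111 on the plus strand. Whether a probe falls in coding sequence or a UTR was not annotated here, because no annotation of mm9 was used. The accessions of 18 of the 21 probes were in the RefSeq gene table of GRCm38.p6, and all 18 carried the same symbol there.

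The markers matched the labelled cell type only in part. Of 7 epithelial markers, Trp63, a transcription factor of stratified epithelia, was clearly measured at its brighter probe alone. That probe had 2306 on the control and 2896 on the CHIR99021 array. The other tested Trp63 probe was dim, at a mean log2 signal of -4.526 after scaling, with a log2 ratio of -3.735 as computed. The 2 Trp63 probes thus lay on opposite sides of a ratio of 1. Cdh1, Epcam and Krt8 were not detected on either array, Krt18 was detected on the control array alone, and Krt14 was dim at 48.5 and 54.6. Krt5 was detected on the CHIR99021 array alone, where it was at least 7.24-fold higher and met the higher criteria, and its spot lay in row 379 of the 384 rows and was uneven there (pixel SD over mean 0.323 against 0.218 on the control). Among markers of odontogenic epithelium, Tbx1 was detected on both arrays (77.1 and 95.4), and Ambn, Amelx, Enam, Sox2 and Shh on neither. Of 8 mesenchymal markers, 7 were detected on both arrays, among them Vim (52302 and 45883), Col1a1 (122712 and 116216) and Prrx1 (14806 and 14453), and Dspp was not. The 7 had a median log2 ratio of 0.02 and none met the criteria in either direction. Their part in the results below was not tested. In RNA of whole cultures, fewer cells of a type and less RNA per cell cannot be told apart.

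The error that could be measured was that of spots. The control array had 29562 detected spots (49.8% of 59305) and the CHIR99021 array 28636 (48.3%), with no saturated spot. The array prints 278 probes 10 times each, and the SD of the log2 ratio among the copies was 0.03 at the median. Each member probe was given the median SD of the 50 repeated probes nearest in signal, which was 0.03 for each of them. The same value, 0.0345, was given to probes from 39.8 to 1892 on the control array. It therefore does not give the error of the dim ones separately. Of the 19, 1 was dimmer than any of these repeated probes. The error that Feature Extraction itself assigns to each signal was larger and came to 0.20 to 0.34 on the log2 ratios of the 19 probes. At bright probes it acted much like a fixed allowance. It was 0.204 for both Yap1 probes, whose pixel SD over mean on the control array was 0.08 and 0.22. Neither error covers the spread between cultures. As a check of the treatment, all 8 measured genes of a list of 10 Wnt feedback genes had ratios above 1. Of these, 3 met the higher criteria (Lef1, Nkd1 and Rnf43), against 2.63% of all gene names. The median log2 ratio of the 8 was 0.70 where the 2 genes not detected on the control array are put at their bound (0.99 as computed). Lef1, a β-catenin partner in the nucleus, had a signal of 239 on the control and 690.5 on the CHIR99021 array, a ratio of 2.997. Rnf43, a ubiquitin ligase that removes Wnt receptors, went from 69.3 to 167, with a Z-score of 2.001, barely past the limit. The feedback inhibitors Axin2 and Nkd1 were not detected in control cells and were at least 1.66-fold and 25.8-fold higher on the CHIR99021 array. The Nkd1 spot lay in row 368 of the 384 rows and was uneven on the CHIR99021 array, with a pixel SD over mean of 0.401 against 0.222 on the control, and the part of this in its value was not tested. Sp5 and Dkk1 were not detected on either array.

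**Figure D1:**
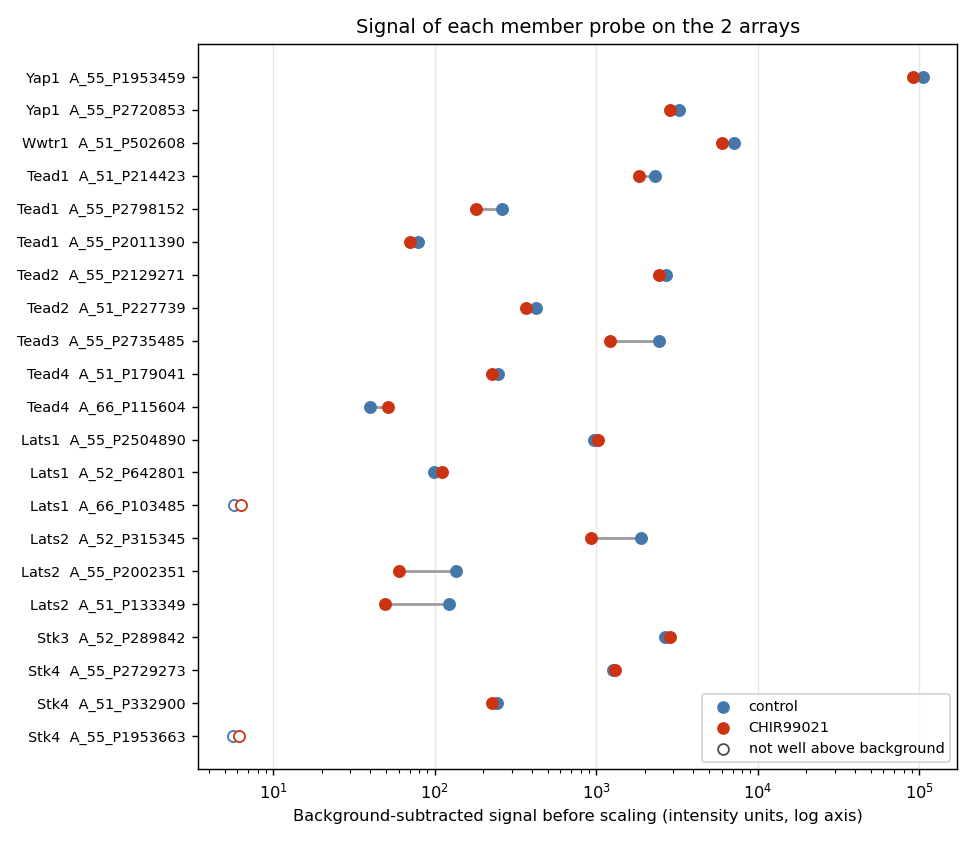
Signal of each of the 21 member probes on the control array (blue) and on the CHIR99021 array (red), in intensity units on a log axis, before scaling between arrays; open circles are probes not detected (not well above background). The pairs of the 3 Lats2 probes and the Tead3 probe are the widest apart, with the CHIR99021 signal on the left, and most other pairs nearly overlap.

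The coactivators YAP and TAZ, the nuclear output of the pathway, were little different between the arrays. Yap1 had a signal of 105368 on the control and 92028.5 on the CHIR99021 array at its brighter probe, which lies at chr9:7932025-7932084 on the minus strand. Its second probe, designed on an Ensembl transcript, had 3236 and 2849. The ratios were 0.906 and 0.913, so that probes in separate stretches of Yap1 gave close values. Wwtr1, the gene of TAZ, had a single probe, with signals of 7162 and 6051 and a ratio of 0.876. The log2 ratio of Yap1 exceeded that of Wwtr1 by 0.05, about the size of the spot error of such a difference (SD 0.04). All 3 probes lay below 1 by less than the error Feature Extraction assigns to them.

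The TEAD factors, which bind DNA and carry YAP and TAZ to their targets, did not move as a family. Tead3 had a signal of 2437 on the control and 1211 on the CHIR99021 array. Its ratio was 0.515 (log2 ratio -0.96) and its Z-score -3.05. This was the only Tead3 probe on the array, so no other probe could check it. The 3 spots around it that were detected on 1 or both arrays had a median log2 ratio of -0.01. Its own error by Feature Extraction was 0.20.

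Tead1, a TEAD factor of muscle and many other tissues, had 3 probes, all below 1 and none past the criteria. The brightest had signals of 2303 and 1829 and a ratio of 0.824. The second, with 261 and 181, had a ratio of 0.718, and the third, with 78.5 and 70.2, had a ratio of 0.927. The probes of Tead1 thus differed among themselves by more than the spot error given to them, which is not specific to dim probes. The first 2 were past the error Feature Extraction assigns. Tead2, which is active in early embryos, had signals of 2699 and 2438 at one probe and 424 and 366 at the other, with ratios of 0.937 and 0.894. Tead4, known for its role in the trophectoderm, had probes on both sides of 1. One went from 247 to 228, a ratio of 0.956, and the dimmer one from 39.8 to 51.6, a ratio of 1.34 at a Z-score of 0.36. No direction for Tead4 can be given. The log2 ratio of Tead3 minus that of Tead1 was -0.68, minus that of Tead2 -0.86 and minus that of Tead4 -0.89, each with a spot error of 0.05 (SD).

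The LATS kinases, which phosphorylate YAP and TAZ directly, parted. Lats2 had a signal of 1892 on the control and 927 on the CHIR99021 array at its brightest probe, a ratio of 0.508 (log2 ratio -0.98) and a Z-score of -3.14. The variant B probe had 135 and 60.1, and the second variant A probe had 123 and 49.3. The CHIR99021 signal was thus the lower one at each of the 3 probes. The ratios of the dimmer probes were 0.461 and 0.416, past the ratio criterion. Their Z-scores were -1.44 and -1.68, short of the criteria, because the Z-score divides by the spread of probes of like signal, which is wider at low signal. Against the error Feature Extraction assigns (0.20, 0.26 and 0.27), the log2 ratios of -0.98, -1.12 and -1.26 were several times larger. Detected spots adjacent to the 3 Lats2 probes (3, 4 and 5 spots) had median log2 ratios of 0.27, 0.16 and 0.13. Such medians rest on few spots and varied among the other members. They were -0.31 beside the brightest Lats1 probe (4 spots), -1.33 beside the brightest Stk4 probe (2 spots) and 0.40 beside the brightest Tead1 probe (2 spots). The part of array position in these ratios was not tested.

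Lats1, the paralog of Lats2 with the same substrates, had a signal of 964 on the control and 1020.4 on the CHIR99021 array, a ratio of 1.098. Its second probe had 99.1 and 112, a ratio of 1.17. A further Lats1 probe was detected on neither array (5.76 and 6.37) and was not tested. Both tested probes lay above 1 and neither met the criteria. The log2 ratio of Lats2 minus that of Lats1 was -1.11, with a spot error of 0.05 (SD), the widest gap among the 6 pairs of paralogs compared. Of the TEAD pairs, only those with Tead3 were compared.

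The MST kinases at the head of the core cascade were close to 1. Stk3 (MST2) had a single probe, with signals of 2667 and 2863 and a ratio of 1.11. Stk4 (MST1) had signals of 1271 and 1314 at its brightest probe, a ratio of 1.07. A second Stk4 probe, whose 60 bases are split in the genome between the ends of chr2:163914725-163922517, had 244 and 226, a ratio of 0.959. A further Stk4 probe was detected on neither array (5.61 and 6.14). The measured Stk4 probes therefore lay on both sides of 1, each within the error of Feature Extraction, and the log2 ratios of Stk3 and Stk4 differed by 0.06 with a spot error of 0.05 (SD).

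**Figure D2:**
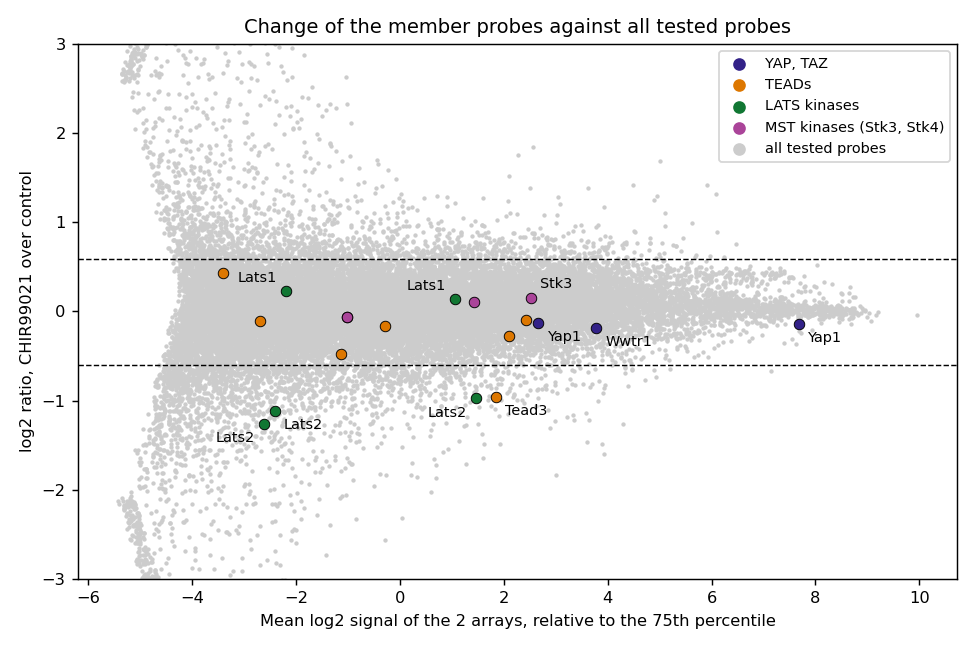
Log2 ratio of CHIR99021 over control (vertical axis) against the mean log2 signal of both arrays relative to the 75th percentile (horizontal axis), for all 28066 tested probes (grey) and the 19 tested member probes (coloured by role); dashed lines mark ratios of 0.66 and 1.5, and 775 probes lie beyond the plotted range of 3. The brightest Lats2 probe and the Tead3 probe lie where few grey points fall as low, whereas the dimmer Lats2 probes lie where grey points scatter more widely.

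Over the 10 genes, 7 ratios were below 1 and 3 above (Lats1, Stk3 and Stk4), and the median log2 ratio was -0.12, against 0.02 for all 18837 gene names, of which 46.6% were below 1. Over the 19 probes, 14 were below 1 and 5 above. Of the 17 probes that met no criterion, 12 had log2 ratios within the error Feature Extraction assigns to them. The 5 beyond it were the brighter pair of Tead1 probes, the dimmer pair of Lats2 probes and the dimmer Tead4 probe. The 4 probes with ratios of at most 0.66 were the 3 of Lats2 and the 1 of Tead3. By array position, 10 of the 19 lay past row 192 of 384, against 51.6% of all tested probes.

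The calls of Lats2 and Tead3 turned on how the Z-score was formed. With 1 mean and SD over all tested probes in place of the 500 nearest ones, their Z-scores were -1.08 and -1.06 and neither met the criteria. Lats2 also failed them where its lowest-ratio probe stood for the gene. Over the 17 alternatives their ratios were 0.416 to 0.539 for Lats2 and 0.497 to 0.547 for Tead3. Many of these alternatives could not change the calls, since scaling by a constant leaves the Z-score as it is, filters on dim probes do not reach these probes, and Tead3 has a single probe.

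**Figure D3:**
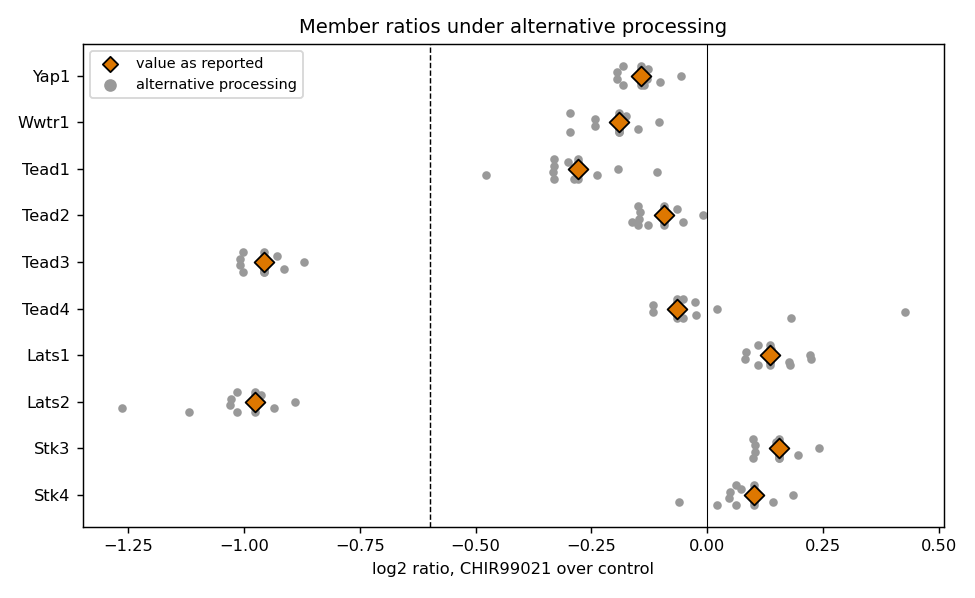
Log2 ratio of CHIR99021 over control for each of the 10 genes as reported (orange diamonds) and under the 17 alternative ways of processing (grey points); the dashed line marks a ratio of 0.66 and the solid line a ratio of 1. Lats2 and Tead3 stay left of the dashed line throughout, Tead4 crosses to above 1 in 3 alternatives and Stk4 to below 1 in 1.

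Among the genes that act on the core kinases, the adaptors and upstream activators, 23 of 26 were measured, 10 with ratios below 1 and 13 above. One of them, Fat4, a giant cadherin that acts as a receptor upstream of the pathway, met the lower criteria, against 3.22% of all gene names. Its signal was 282 on the control and 70.9 on the CHIR99021 array at its only tested probe, a ratio of 0.261 and a Z-score of -3.94. None met the higher criteria, and the list's median log2 ratio was 0.02, close to that of all gene names. Of the STRIPAK phosphatase complex, which dephosphorylates the MST kinases, 11 of 12 genes were measured, 4 below 1 and 7 above, with a median of 0.03. Strn, a scaffold of that complex, met the higher criteria (against 2.63% of all gene names), with 44.5 on the control and 185 on the CHIR99021 array (ratio 4.31, Z-score 2.94). Its spot lay in row 377 of the 384 rows and was uneven on the CHIR99021 array, with a pixel SD over mean of 0.324 against 0.208 on the control. The part of spot position and evenness in the Strn value was not tested.

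Among cofactors and inhibitors of YAP, TAZ and TEAD, 13 of 16 genes were measured, 8 below 1 and 5 above, with a median log2 ratio of -0.20. Amotl2, an angiomotin family protein that holds YAP at cell junctions, had signals of 3071 and 1555, a ratio of 0.525 and a Z-score of -2.79. Vgll3, a vestigial-like cofactor that competes with YAP for TEAD factors, had 6402 and 3505, a ratio of 0.568 and a Z-score of -2.91, and both of its probes met the lower criteria. These 2 of the 13 met the lower criteria, against 3.22% of all gene names, and none met the higher criteria, against 2.63%.

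All 22 genes of a list of YAP and TAZ targets were measured, 12 with ratios below 1 and 10 above, and the median log2 ratio was -0.13. The lower criteria were met by 5 of them, against 3.22% of all gene names, and the higher criteria by 2, against 2.63%. Among the 5 were Lats2 and Amotl2, which also stand on the lists above. Ctgf, a matrix protein gene long used as a YAP readout, had signals of 7391 and 1998, a ratio of 0.280 and a Z-score of -5.85. Cyr61, its relative, had 5179.8 and 3149.9, a ratio of 0.631 and a Z-score of -2.34. Crim1, a transmembrane protein that binds BMPs, had 1839 and 1082, a ratio of 0.610 and a Z-score of -2.19. The list did not move one way, since Fjx1, whose fly relative acts on Fat cadherins, and the growth factor gene Tgfb2 met the higher criteria. Fjx1 had 323 and 647 (ratio 2.08), and Tgfb2 had 365 and 681 (ratio 1.94). Ankrd1, another common YAP readout, had 854 and 954, a ratio of 1.16 and a Z-score of 0.57. Away from their brightest probes, Slmap of the STRIPAK list had 1 probe that met the lower criteria and Ptpn14, a listed YAP inhibitor and target, had 1 that met the higher criteria; both are named after their values were seen.

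**Figure D4:**
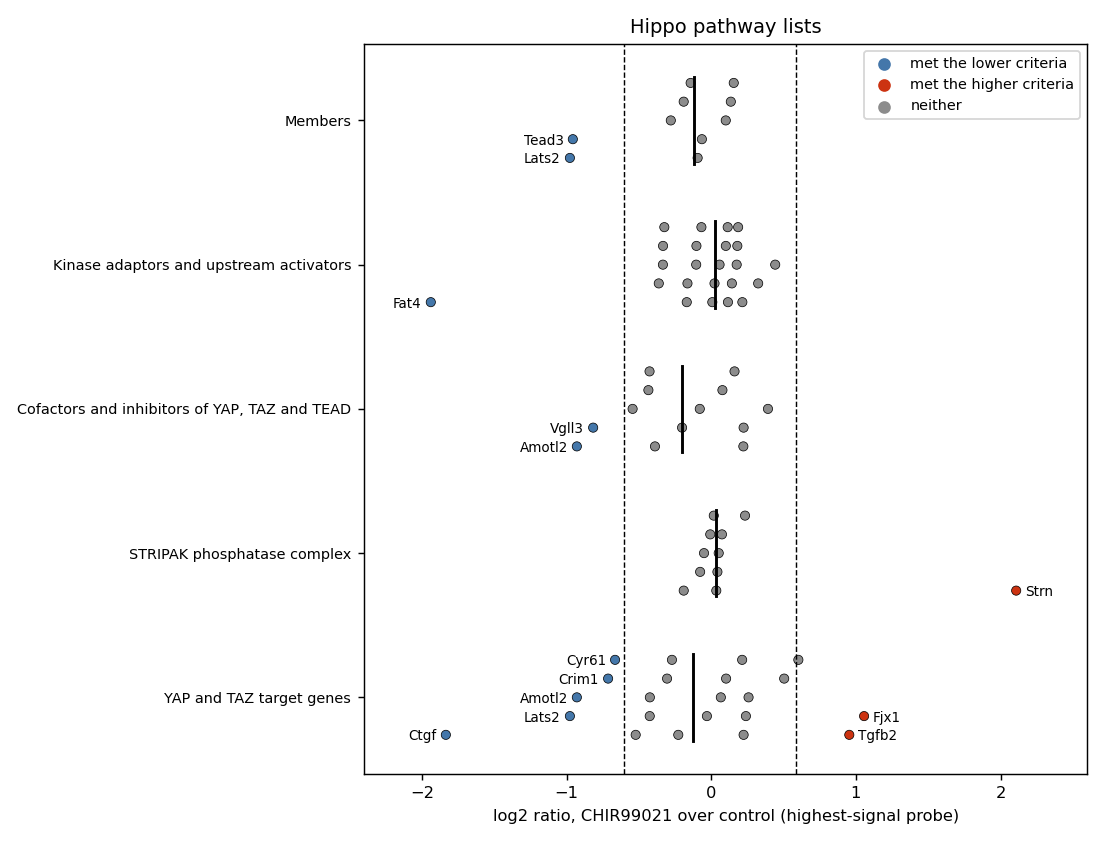
Log2 ratio of CHIR99021 over control at the highest-signal probe of each measured gene in the 10 members and 4 pathway lists; black bars are list medians, dashed lines mark ratios of 0.66 and 1.5, and genes that met the criteria are named. Points that met the lower criteria (blue) occur in every row but STRIPAK, and points that met the higher criteria (red) are Strn, Fjx1 and Tgfb2.

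RefSeq promoter sequences of GRCm38.p6 were searched for the letters that TEAD factors and TCF/LEF factors, the partners of β-catenin, are known to recognise. The table held 11 promoters of 7 of the genes, and none was listed for Tead1, Tead4 and Stk3. The letters searched on both strands were CATTCC for TEAD factors and CTTTGA or CTTTGT for TCF/LEF factors, within 250 bases before and 50 bases after the start. TEAD letters were in 14.7% and TCF/LEF letters in 31.2% of all 32851 promoters. TEAD letters stood in 6 of the 11 promoters, those of Lats2, Tead3, Yap1 and Wwtr1, and TCF/LEF letters in 3, those of Tead2 and Wwtr1. These counts are not of separate sites, since the windows of a gene can overlap, and both Wwtr1 windows hold the same matches. In Wwtr1 a TCF/LEF match and the TEAD match overlapped by 1 base. The promoters with the most matches of the 2 genes that met the criteria are shown from 250 bases before to 30 bases after the start, with TEAD letters in capitals.
Lats2 chr14:57746094-57746373, minus strand: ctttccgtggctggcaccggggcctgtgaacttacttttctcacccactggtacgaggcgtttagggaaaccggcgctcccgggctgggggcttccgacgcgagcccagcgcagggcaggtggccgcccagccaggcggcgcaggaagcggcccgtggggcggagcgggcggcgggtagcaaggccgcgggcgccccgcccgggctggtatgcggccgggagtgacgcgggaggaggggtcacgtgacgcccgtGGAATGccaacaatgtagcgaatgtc
Tead3 chr17:28350571-28350850, minus strand: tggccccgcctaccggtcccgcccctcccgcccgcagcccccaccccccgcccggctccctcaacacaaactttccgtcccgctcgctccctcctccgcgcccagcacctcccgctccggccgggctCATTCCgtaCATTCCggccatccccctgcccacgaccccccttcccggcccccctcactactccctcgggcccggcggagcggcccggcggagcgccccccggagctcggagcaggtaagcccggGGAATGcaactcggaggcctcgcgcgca
The Lats2 match starts at base +5 and reads GGAATG, the letters of the opposite strand, and a second Lats2 promoter held none. The Tead3 promoter held matches at bases -123, -114 and +3, and the other two Tead3 promoters held 1 and 0. Neither gene's promoters held the TCF/LEF letters in these windows. Such matches describe the sequence and do not show that a factor was bound.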

How the data were processed

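Total RNA of mDE6 cells was amplified, labelled with Cy3 and hybridised to 1-colour Agilent arrays by the authors, 1 for the control and 1 for CHIR99021 at 6 h. The deposited files hold the intensity of each spot after background subtraction, with no scaling between arrays. The file headers give Feature Extraction 10.7.1.1, and the submitters' processing notes give version 9.5.1.1. The authors' deposited table of normalized intensity values was used as an alternative. Its method is not given in the sources used here. It lists 56605 probes per array, each array's values have a median of 20.4, and its sorted columns were equal, to within 0.01%, at 99.95% of positions.

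Here control and outlier spots were dropped, copies of a probe were averaged, and intensities were divided by the 75th percentile over all spots of their array (486.7 in the control, 469.2 in CHIR99021) and log2-transformed. A probe was tested if it was detected on 1 or both arrays. Z-scores, ratios and criteria are as given above; the sign of the study's Z-score limit was read as negative. A gene with several probes was represented by the one with the highest mean signal. For a probe detected on 1 array alone, the fold was a bound, taken against its signal on the other array or, if larger, the lowest detected signal there. Python 3.11.15, numpy 2.4.6, pandas 2.3.3 and matplotlib 3.10.9 were used, with limma 3.58.1 in R 4.3.3 for normexp background correction (offset 50). The criteria were tested on simulated data. The genes and the lists were chosen with earlier results of these data known. The genes named were all member probes, list genes that met the criteria, Ctgf, Cyr61, Ankrd1, Lef1, Axin2 and Nkd1, and the cell type markers, of which 1 is not reported here. The alternatives were 5 other scalings, normexp, the authors' table, 2 other filters, a floor, uneven spots left out, 3 other Z-score rules and 3 rules for genes with several probes.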

Additional observations from a re-analysis of the deposited data

How the results depend on the processing

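No paired analysis was possible because there is a single array on either side, and for the same reason no array could be left out. Under the 17 alternatives, the ratios of Yap1, Wwtr1, Tead1, Tead2, Tead3 and Lats2 stayed below 1 and those of Lats1 and Stk3 above 1. Tead4 went above 1 in 3 (spike-in scaling, the mean over probes and the highest-ratio probe) and Stk4 below 1 in 1 (the lowest-ratio probe). Lats2 met the lower criteria in 15 alternatives and Tead3 in 16, many of which could not have changed the call. The count of 2 genes that met them became 0 with 1 mean and SD for the Z-score and 1 with the lowest-ratio probe. The median log2 ratio of the 10 genes, -0.12, became -0.17 with quantile normalization, -0.077 with median scaling, -0.17 without scaling, -0.032 with spike-in scaling, -0.17 with the percentile over probes above background on both arrays, -0.17 in the authors' table and -0.15 with the lowest-ratio probe. Over all tested probes, 763 met the lower criteria, against 1369 with the median and MAD in the Z-score and 2717 by ratio alone. The higher criteria were met by 659, against 1031 without a filter on dim probes, 1265 with the median and MAD and 2312 by ratio alone. Median scaling, no scaling, spike-in scaling and the percentile over probes above background on both arrays each moved all ratios alike, by -0.05 to 0.09 on the log2 scale, whereas quantile normalization moved each gene differently (Wwtr1 from -0.19 to -0.30, Tead4 from -0.06 to -0.05). The causes of the other changes were not tested. Signal over background limits the dimmer Lats2, Tead1 and Tead4 probes most, since their ratios scatter more, and the Lats1 and Stk4 probes detected on neither array gave no ratio.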
